A study of Mus musculus with 6 samples.

Results

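The semaphorins, plexins and neuropilins were examined as 1 family of guidance genes in Pax6-deficient retinal progenitor cells (RPCs). The family was taken as 31 named genes, 20 semaphorins, 9 plexins and 2 neuropilins, and all 31 were measured among the 18193 genes of the array that have a probe set of their own. Each gene is shown by the brightest, on average over the 6 arrays, of the probe sets that the annotation gives to that symbol alone. The members have 78 such probe sets in all. RNA came from 3 control and 3 Pax6 mutant pools of GFP-positive cells, each hybridised to 1 Affymetrix mouse expression array. Control embryos carried the α-Cre transgene with an intact Pax6 gene (Pax6+/+), mutant embryos carried Pax6 flox (loxP/loxP) together with α-Cre, and both were of the ICR background at E12. All 6 pools therefore came from cells with the transgene, which expresses Cre and GFP under the Pax6 P0 promoter and the α enhancer of the peripheral retina. Each pool was gathered from the eyes of an unstated number of embryos, so the arrays give no value for a single animal, and the transgene is described as silent in occasional patches of RPCs. Recombination removes the Pax6 exons with the start codon and the paired domain.

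Semaphorins are guidance ligands with a sema domain in common. Class 3 semaphorins are secreted, classes 4 to 6 span the membrane, and class 7 is held by a lipid anchor. Plexins are the receptors that carry the signal into the cell, through a cytoplasmic domain that acts on small GTPases of the Ras and Rap families. Most class 3 semaphorins bind a neuropilin, which joins a class A plexin to form the receptor, whereas the membrane-bound ligands bind plexins directly. Neuropilins also bind VEGF, and they are known from axons, migrating neural crest cells and endothelium. In the eye, semaphorins and plexins are known for guiding retinal ganglion cell axons, for ordering the neurites of the inner retina and for shaping the retinal vessels.

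The Pax6 mutant pools had higher levels of both neuropilin genes, and of 1 ligand gene, the class 3 semaphorin Sema3d. Below, mutant RPCs stands for these whole pools, which also carried markers of other cells. Calls required a change of 1.5-fold or more together with p under 0.05 and an adjusted p under 0.10 in limma, where the adjustment covered all 45037 probe sets tested. Nrp1, Nrp2 and Sema3d were the 3 of 31 members called higher (9.68%), where 2.28% of all 18193 genes were called in that direction. None was called lower by limma, nor with an intensity trend or without moderation of the variance, where 0.918% of all genes were, although 3 members with negative values had an unadjusted p under 0.05. In all, 14 members had an unadjusted p under 0.05, 11 of them higher, as did 24.4% of all genes in either direction. With the adjusted p alone, 9 members were higher (29.0%) and 1 was lower (3.23%), against 7.15% and 5.22% of all genes. The median log2 fold change of the members was 0.04, and that of all genes was -0.01. The mutant arrays lay wholly above the controls for 12 members and wholly below for 3, where 17.0% and 16.4% of all genes did so. In these bulk RNA pools, a change in the share of cells of a type and a change in RNA per cell cannot be told apart.

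**Figure D1:**
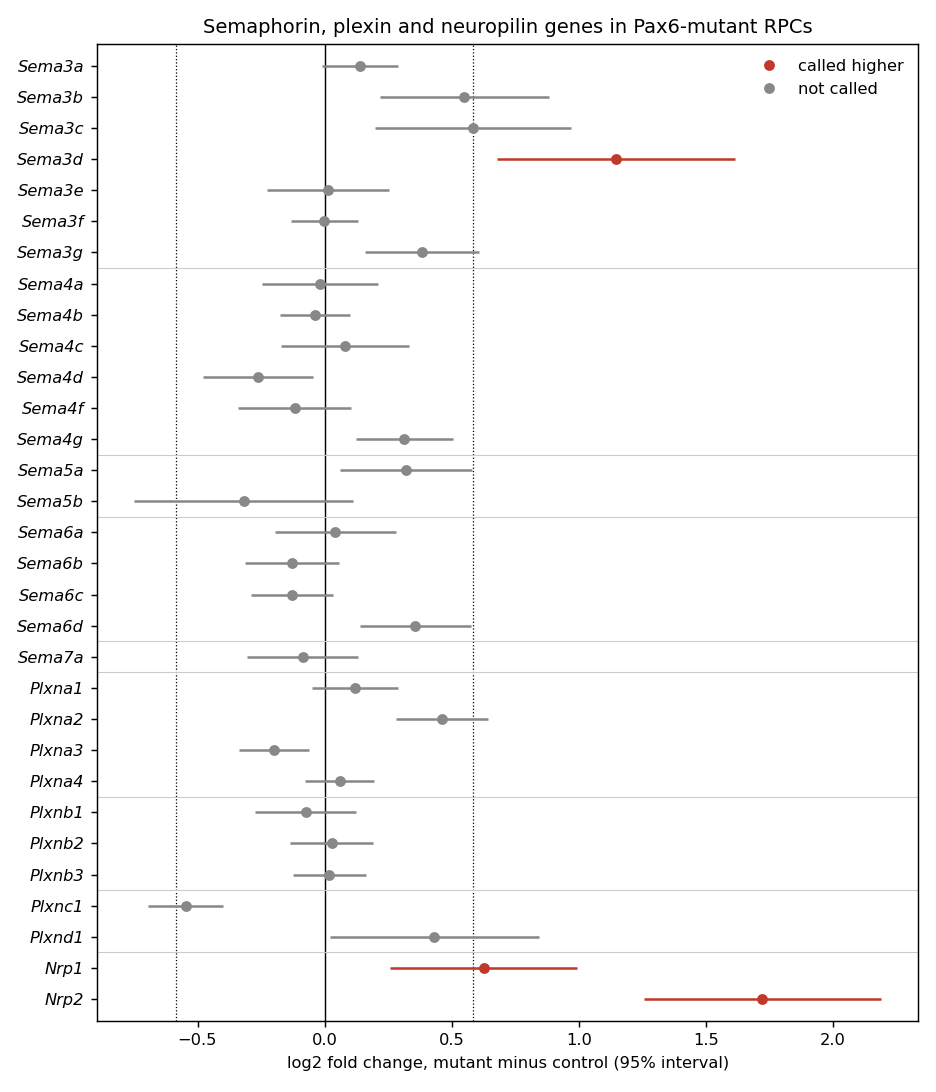
Log2 fold change (mutant minus control, x axis) of the 31 members, 1 row per gene by class, with points at the fitted value and lines for the 95% interval from limma; dotted lines mark a fold change of 1.5 in each direction. The red points of Nrp1 (0.63), Nrp2 (1.72) and Sema3d (1.15) are the called genes, and Plxnc1 (-0.55) lies farthest to the left.

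The pools carried the markers of the labelled tissue and also those of other cells of the eye. For the counts of called markers, the shares over all genes were 2.28% higher and 0.918% lower. All 9 measured progenitor markers lay above the array median in both groups, and 2 of them, Fgf15 (-1.43 on the log2 scale) and Sfrp2 (-0.98), were lower in mutant RPCs. Ganglion cell markers were lower in 6 of 13 genes, led by Isl1 (-1.70) and Atoh7 (-1.21). The paper counts Atoh7 among proneural factors and Pax6 targets reported before, so it does not stand for ganglion cells alone. Among 8 photoreceptor precursor genes Crx (2.31) and Rxrg were higher and Neurod1 (-1.49) was lower. Higher in mutant pools were 7 of 14 pigment epithelium markers, with Ttr (0.99) and Trpm1 (0.87) in front, and 7 of 19 lens and surface ectoderm markers, with Krt14 (1.31) and Cryba2 (1.03). Of the mesenchyme and neural crest markers 7 of 17 were higher, such as Pdgfrb (1.64), while Prrx1 (0.98) was not called. Of the endothelial markers 6 of 15 were higher, with Cdh5 (1.23) and Tek (0.98) in front. None of 8 blood and microglia markers was called by limma, 1 had an unadjusted p under 0.05, and Hba-x (0.48) and Alas2 (0.38) had the largest differences. For Pax6 itself, 1 of 5 probe sets was called lower, with 6.34, 6.44 and 6.14 in the control pools and 4.79, 4.88 and 4.45 in the mutant pools, and the other 4 had log2 fold changes from -0.22 to 0.10. Where these probe sets lie relative to the deleted exons was not analysed here.

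Among the receptors, Nrp2 had the largest difference of all members. It encodes neuropilin-2, the co-receptor for Sema3f and for other class 3 semaphorins. The brightest probe set, 1435349_at, had log2 intensities of 6.39, 5.74 and 6.55 in the control pools and 8.05, 7.92 and 7.89 in the mutant pools. The mutant arrays lay together, well above the highest control, and control replicate 2 lay below the other controls. The difference was 3.30-fold, or 1.72 on the log2 scale (SE 0.20, limma adjusted p 0.00810). Another probe set, 1456778_at, gave 4.24, 3.92 and 4.31 in control and 6.33, 6.29 and 6.17 in mutant RPCs, a rise of 2.11 (SE 0.11, limma adjusted p 0.00134). The third, 1426528_at, gave 1.07 (limma adjusted p 0.00926). The last Nrp2 probe set lay below the array median on every array and was not called (0.16, limma adjusted p 0.382). Nrp2 was called under every alternative that was run, and without 1 array at a time its log2 fold change ranged from 1.48, without control replicate 2, to 1.89, without control replicate 3.

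Nrp1 rose by a smaller amount. It encodes neuropilin-1, the binding partner of Sema3a on axons and of VEGF on endothelium. The brightest probe set, 1448943_at, was at 5.68, 5.98 and 6.19 in control and 6.80, 6.37 and 6.56 in mutant RPCs. Mutant replicate 2 was only slightly above control replicate 3, but the groups did not overlap. This was a 1.54-fold difference, or 0.63 on the log2 scale (SE 0.16, limma adjusted p 0.0693). The next, 1418084_at, was at 5.08, 5.30 and 5.39 in control and 6.02, 5.86 and 5.73 in mutant RPCs, a rise of 0.61 (limma adjusted p 0.0266). The third had one of 0.60 (limma adjusted p 0.0892), and the dimmest had 0.48 (limma adjusted p 0.0380), below the fold limit. For each neuropilin 3 of 4 probe sets were called higher, where 1.67% of all probe sets were. Probe sets of 1 gene were read from the same pools and are not independent of each other. The brightest Nrp1 probe set lost its call when control replicate 1 (0.49) or 2 (0.64) or mutant replicate 1 (0.51) or 3 (0.63) was left out, and also without moderation of the variance (ordinary linear model, adjusted p = 0.234). The median of the 4 probe sets was called (0.60, limma adjusted p 0.0193).

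**Figure D2:**
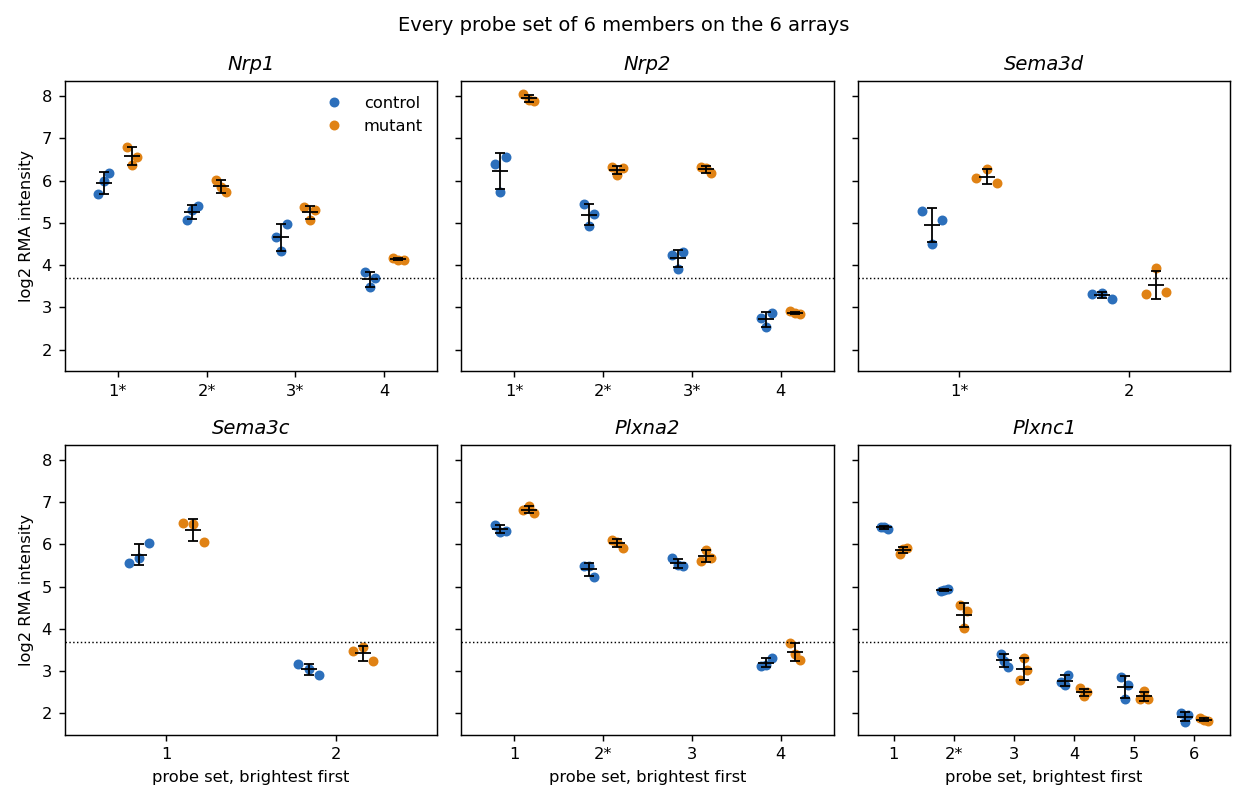
Log2 RMA intensity (y axis) of every probe set of 6 members, ordered from brightest on the x axis, drawn blue for control and orange for mutant arrays, with black bars for the mean and SD of 3 arrays; a star marks a called probe set and the dotted line the median of the arrays. For Nrp1 and Nrp2 the 3 brightest probe sets are starred, and for Plxnc1 both probe sets above the dotted line are lower in the mutant arrays.

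The 250 bases before the annotated starts of Nrp2, Nrp1 and Sema3d, the 3 called members, are shown to set side by side the promoters of the genes that rose. They are RefSeq entries of GRCm38.p6, each 5′ to 3′ on the plus strand, at chr1:62703067-62703316, chr8:128358823-128359072 and chr5:12382916-12383165. Capitals mark matches on either strand to the GC box GGGCGG, the site of Sp factors, and to the E-box CANNTG, the site of basic helix-loop-helix factors.
Nrp2: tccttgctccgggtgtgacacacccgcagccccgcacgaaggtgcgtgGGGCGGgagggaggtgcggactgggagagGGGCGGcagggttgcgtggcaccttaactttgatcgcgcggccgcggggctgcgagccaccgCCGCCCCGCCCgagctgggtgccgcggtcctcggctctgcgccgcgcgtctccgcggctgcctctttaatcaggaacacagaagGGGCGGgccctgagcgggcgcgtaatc
Nrp1: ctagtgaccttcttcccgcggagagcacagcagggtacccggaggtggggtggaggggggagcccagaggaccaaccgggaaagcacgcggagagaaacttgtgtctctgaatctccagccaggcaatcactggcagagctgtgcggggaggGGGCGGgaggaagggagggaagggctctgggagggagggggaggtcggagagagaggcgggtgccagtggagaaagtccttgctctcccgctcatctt
Sema3d: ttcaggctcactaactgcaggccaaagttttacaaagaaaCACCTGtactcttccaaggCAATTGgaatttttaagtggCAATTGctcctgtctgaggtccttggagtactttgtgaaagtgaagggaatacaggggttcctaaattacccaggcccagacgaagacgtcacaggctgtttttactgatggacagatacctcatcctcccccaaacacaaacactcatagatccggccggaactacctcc
The Nrp2 window held 5 GC boxes, 1 pair of them overlapping, and no E-box, with 32 CpG and 72.4% G and C. The Nrp1 window held 1 GC box and no E-box, with 11 CpG and 64.4% G and C. The Sema3d window was of another kind, with 3 E-boxes, no GC box, 4 CpG and 46.8% G and C. Of 32851 RefSeq promoters of this length, 32.7% held a GC box and 66.2% an E-box, and the median was 6 CpG and 52.4% G and C. The dimer site of paired-type homeodomains, TAAT and ATTA with 3 bases between them, was in 0.463% of all promoters and in none of the entries of the 26 members that had one. These matches describe the letters of the windows alone, and the motifs were chosen after the fold changes were seen.

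None of the 9 plexins was called by its brightest probe set, by limma with or without moderation or with an intensity trend, although 4 had an unadjusted p under 0.05, and their median log2 fold change was 0.03. Plxna2 encodes plexin A2, a partner of neuropilins that also binds Sema6a. It was at 6.46, 6.29 and 6.32 in control and 6.81, 6.91 and 6.74 in mutant RPCs. The mutant arrays all lay above the controls, and the log2 fold change of 0.46 (SE 0.08, limma adjusted p 0.0217) stopped short of the fold limit. Another Plxna2 probe set, 1455037_at, was at 5.49, 5.50 and 5.22 in control and 6.10, 6.06 and 5.92 in mutant RPCs and was called higher (0.62, limma adjusted p 0.0168). The last pair had log2 fold changes of 0.16 and 0.25 and were not called. Of the other class A plexins, Plxna1 had a log2 fold change of 0.12 (95% interval -0.05 to 0.29), Plxna4 one of 0.06 (-0.08 to 0.20) and Plxna3 one of -0.20 (-0.34 to -0.06, limma adjusted p 0.108).

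Plxnc1 was the member with the lowest value. It encodes plexin C1, the receptor for Sema7a. Its brightest probe set, 1423213_at, was at 6.41, 6.42 and 6.37 in control and 5.77, 5.88 and 5.91 in mutant RPCs. Both groups were tight and did not overlap. The log2 fold change was -0.55 (SE 0.06, limma adjusted p 0.00810), a 1.46-fold difference that is just below the fold limit of 1.5. A dimmer probe set, 1450905_at, was called lower, at 4.91, 4.93 and 4.95 in control and 4.56, 4.01 and 4.41 in mutant RPCs (-0.60, limma adjusted p 0.0530). The other 4 lay below the array median and had negative values from -0.28 to -0.08. By the median over the 6 probe sets the difference was -0.24 (limma adjusted p 0.121). Plxnd1, which encodes plexin D1, the receptor of Sema3e on endothelial cells, was at 7.39, 6.90 and 7.54 in control and 7.62, 7.92 and 7.59 in mutant RPCs, with control replicate 2 again the lowest (0.43, limma adjusted p 0.221). Without that array its log2 fold change was 0.24. The class B plexins lay between -0.07 and 0.03 on the log2 scale. Plxnb2, the receptor for Sema4c and Sema4g, had a log2 fold change of 0.03 (95% interval -0.13 to 0.19), the Sema4d receptor Plxnb1 one of -0.07 (-0.27 to 0.12), and Plxnb3 one of 0.02 (-0.13 to 0.16).

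Of the secreted ligands, Sema3d was called and 3 others were higher by the adjusted p alone. Sema3d, a ligand of neuropilins that is known from neural crest and from axons of the visual system, was at 5.27, 4.49 and 5.07 in control and 6.06, 6.28 and 5.93 in mutant RPCs by probe set 1429459_at. The groups were well apart, with control replicate 2 the lowest array. The difference was 2.21-fold, a log2 fold change of 1.15 (SE 0.20, limma adjusted p 0.0248). Sema3d remained called without any 1 array, from 0.92 without control replicate 2 to 1.31 without control replicate 1, but not without moderation of the variance (ordinary linear model, adjusted p = 0.152). The other Sema3d probe set, which lay below the array median, was not called (0.25, limma adjusted p 0.434), and the median over both gave 0.70.

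Sema3c, a neuropilin ligand of neural crest and the heart, lay on the fold limit. It was at 5.56, 5.68 and 6.04 in control and 6.50, 6.48 and 6.05 in mutant RPCs. Control replicate 3 and mutant replicate 3 nearly met. The log2 fold change of 0.584 (SE 0.16, limma adjusted p 0.0967) fell just under the 0.585 of a 1.5-fold change, and Sema3c was called without control replicate 3 (0.72) or mutant replicate 3 (0.73) and with array medians subtracted (0.595). Sema3b was at 4.56, 4.44 and 4.67 in control and 5.34, 5.18 and 4.80 in mutant RPCs (0.55, limma adjusted p 0.0762). Its other 2 probe sets gave 0.15 and 0.18, and under the fold limit of 1.5 it was called only without mutant replicate 3 (0.70). Sema3g, known from the vessel wall, had control levels of 3.84, 3.58 and 3.70, close to the array median, and mutant levels of 4.13, 4.19 and 3.94 (0.38, limma adjusted p 0.0696).

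The remaining class 3 genes had no probe set called by limma, and 2 of theirs, both of Sema3a, had an unadjusted p under 0.05. Sema3a, the axon repellent that acts through neuropilin-1, had a log2 fold change of 0.14 (95% interval -0.01 to 0.29, limma adjusted p 0.274). Its dimmer probe sets gave 0.31 (0.01 to 0.62, limma adjusted p 0.226) and 0.35 (0.04 to 0.65, limma adjusted p 0.183), the latter below the array median. Sema3f, the ligand of neuropilin-2, had the same mean of 7.21 in both groups, with SDs of 0.02 and 0.03 over 3 arrays each, and the 95% interval of its difference ran from -0.13 to 0.13. Its brightest probe set carries the suffix of sets whose probes may pick up other transcripts, and its other 2 probe sets gave -0.12 and -0.16. Sema3e, which binds plexin D1 without a neuropilin, had a log2 fold change of 0.01 (-0.23 to 0.25). On chromosome 5 Sema3d and Sema3a are next to each other, with no protein-coding gene between them, Sema3e follows after 3 genes and Sema3c after 15 more. Within this stretch Sema3d was called, Sema3c lay on the limit, and Sema3a and Sema3e had intervals that include 0 by their brightest probe sets.

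**Figure D3:**
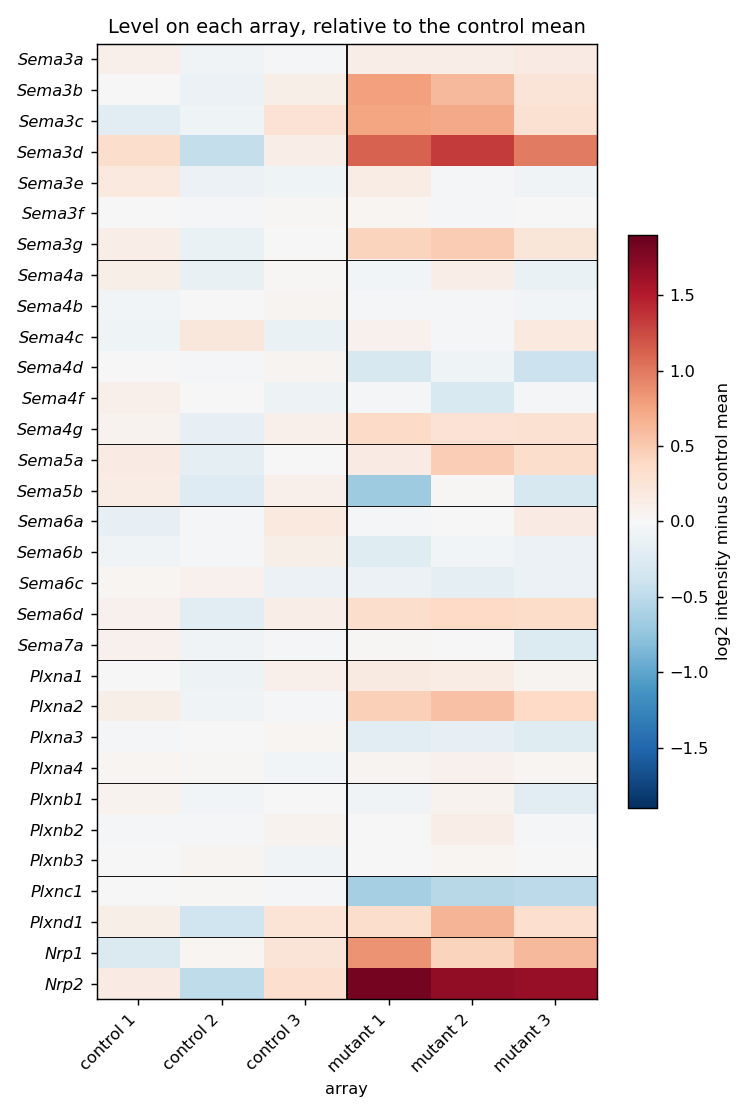
Log2 intensity minus the control mean (colour, red for higher and blue for lower) of each member in rows on each of the 6 arrays in columns, with lines between classes and between genotypes. The Nrp2 and Sema3d rows are red on all 3 mutant arrays and bluest among the controls on control replicate 2, and the Plxnc1 row is blue on all 3 mutant arrays.

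None of the 13 semaphorins of classes 4 to 7 was called by limma, with or without moderation or with an intensity trend, and 4 of them had an unadjusted p under 0.05. Their median log2 fold change was -0.04. The highest were Sema6d, a ligand of plexin A1 at the optic chiasm, Sema5a, an inhibitory cue of the retina, and Sema4g. Sema6d was at 7.06, 6.78 and 7.10 in control and 7.32, 7.36 and 7.34 in mutant RPCs (0.36, limma adjusted p 0.0792), with the 3 mutant arrays close together above the controls. All 4 Sema6d probe sets had positive values, from 0.11 to 0.38. Sema4g had means of 5.73 (SD 0.13, n = 3) and 6.04 (SD 0.05, n = 3), a difference of 0.31 (limma adjusted p 0.0775), and Sema5a had a log2 fold change of 0.32 (limma adjusted p 0.159). Sema5a and Sema5b, both known for keeping neurites to the inner plexiform layer, had values of opposite sign. Sema5b was at 3.94, 3.57 and 3.91 in control and 3.14, 3.83 and 3.50 in mutant RPCs, near the array median and with overlapping groups (-0.32, limma adjusted p 0.373). Its value ran from -0.49, without mutant replicate 2, to -0.14, without mutant replicate 1, when 1 array was left out.

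Sema4d, the ligand of plexin B1, had a log2 fold change of -0.26 (limma adjusted p 0.165), with its mutant arrays all under its controls. The intervals of the other 8 genes of these classes included 0. Sema4c had a log2 fold change of 0.08, Sema4b one of -0.04 and Sema4f one of -0.12. Sema4a, known from the pigment epithelium, lay below the array median in both groups (-0.02). In class 6, Sema6a was at 0.04 by its brightest probe set, and its other 2 were at -0.07 and -0.22. Sema6c and Sema6b had log2 fold changes of -0.13 each, the latter below the array median. Sema7a, the ligand of plexin C1, had one of -0.09 (95% interval -0.30 to 0.13).

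**Figure D4:**
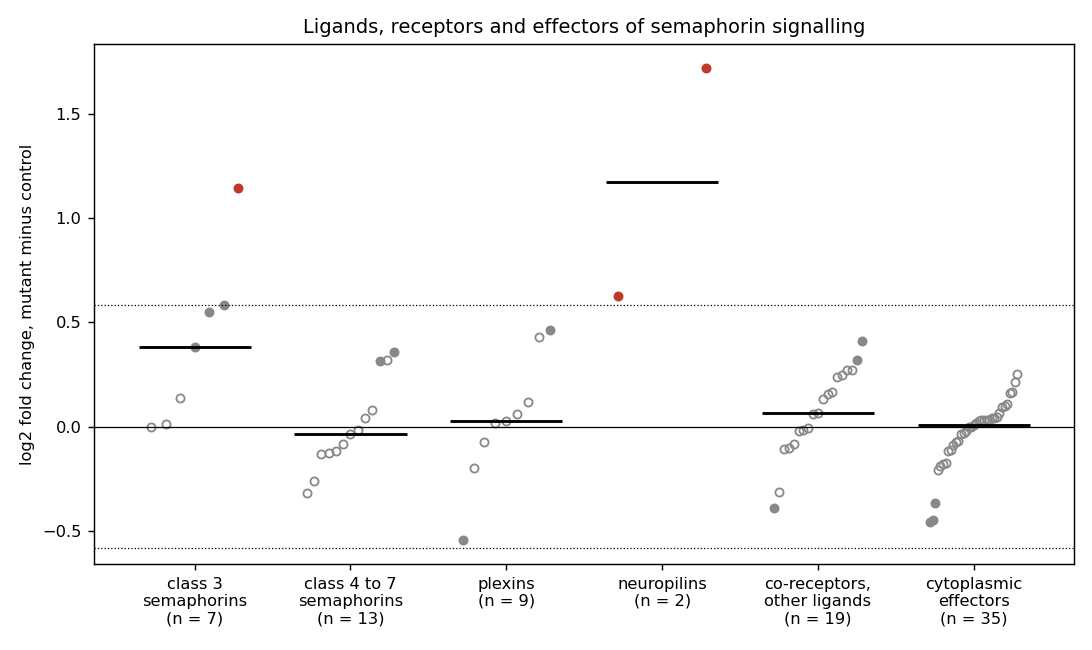
Log2 fold change (mutant minus control, y axis) of each gene in 4 groups of members and 2 lists of partner genes (x axis), with 1 point per gene, a black line at the median of the group and dotted lines at a fold change of 1.5. Red points were called, filled grey points had an adjusted p under 0.10 without reaching the fold limit, and open points had neither; the medians are 0.38 for class 3 semaphorins, -0.04 for classes 4 to 7 and 0.03 for plexins.

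Beyond the family, 19 co-receptors and other neuropilin ligands and 35 measured cytoplasmic effectors of plexins, of 38 listed, were read in the same fit. None of either list was called by limma, with or without moderation or with an intensity trend, while 7 of 19 and 8 of 35 genes had an unadjusted p under 0.05, as did 24.4% of all genes. The medians were 0.06 for the first list and 0.01 for the second. Nrcam, an adhesion molecule that joins neuropilin-2 in its receptor, had a log2 fold change of 0.41 (SE 0.07, limma adjusted p 0.0205). Flt4, the VEGF-C receptor that pairs with neuropilin-2, had one of 0.32 (limma adjusted p 0.0462). The VEGF receptors Kdr and Flt1, partners of neuropilin-1, had values of 0.27 and 0.24, and the ligands Vegfa, Vegfc and Vegfb had 0.27, 0.24 and 0.17. The last 5 of these had an adjusted p over 0.10, and each had its mutant arrays above its control arrays. In the whole list 7 of 19 genes (36.8%) lay wholly above the controls and 1 (5.26%) wholly below, against 17.0% and 16.4% of all genes. Pgf (-0.11), Vegfd (-0.02), Chl1 (-0.08) and L1cam (0.06), and Gipc1 (0.03), which binds the tail of neuropilin-1, had overlapping groups.

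The 3 effectors with the lowest values were collapsin response mediators, cytosolic proteins of axons that act downstream of Sema3a. Crmp1 had a log2 fold change of -0.46 (limma adjusted p 0.0394), Dpysl4 one of -0.45 (limma adjusted p 0.0201) and Dpysl2 one of -0.37 (limma adjusted p 0.0175). Dpysl5 (-0.19) and Dpysl3 (-0.18) had adjusted p over 0.10, as did Cdk5r1 (-0.21), an activator of the kinase Cdk5. For all 6 genes the mutant arrays lay under the controls without overlap. In the whole list 7 of 35 genes (20%) lay wholly below the controls and 6 (17.1%) wholly above, near the 16.4% and 17.0% of all genes. Cntn2, an axonal adhesion molecule of the first list, had -0.39 (limma adjusted p 0.0768). Of the 13 ganglion cell markers, 6 were called lower in the same arrays, where 0.918% of all genes were. The other 7 were not called, and the median log2 fold change of the list was -0.81. Their summed linear intensity was from 2131 to 2802 in control and from 1120 to 1222 in mutant pools. That sum weighs the brightest gene most, Atoh7, with log2 means of 10.90 in control and 9.69 in mutant pools. As Atoh7 is also a proneural factor, the sum is not a measure of ganglion cells alone. Values close to 0 were also among the 13, such as Ebf1 (-0.06) and Pou4f1 (-0.08). The part of these markers in the values above was not tested. The small GTPases of the list ran from -0.17 for Mras to 0.25 for Rnd3, the highest value of the list (limma adjusted p 0.222), and the exchange factor Arhgef11 was at 0.21 (limma adjusted p 0.196).

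Neuropilins, Plxnd1 and class 3 semaphorins are also known from vessels and neural crest, and part of the markers of those cells were higher in the arrays where Nrp2, Nrp1 and Sema3d were. The summed intensity of the 15 endothelial markers was between 972 and 1286 in control and between 1644 and 1799.8 in mutant pools. That of the 17 mesenchyme and neural crest markers was between 936 and 954 in control and between 1332 and 1742 in mutant pools. For 14 pigment epithelium markers the ranges were 6712 to 8141 and 10835.5 to 10884, and for 19 lens and surface ectoderm markers 3203 to 4549.5 and 5861 to 6259. By their control means all 15 endothelial markers lay above the array median. Below it were 5 of 17 mesenchyme and neural crest, 1 of 14 pigment epithelium and 3 of 19 lens and surface ectoderm markers. These levels are not detection calls. The median log2 fold changes of these lists were 0.57, 0.59, 0.60 and 0.65, in the same order. Single genes ran from 0.20 to 1.23 in the endothelial and from -0.25 to 1.64 in the mesenchyme and neural crest list. They ran from -0.03 to 0.99 in the pigment epithelium and from 0.04 to 1.31 in the lens and surface ectoderm list. The called members, which are single genes, had 1.72 (Nrp2), 1.15 (Sema3d) and 0.63 (Nrp1). Within the control group, Nrp2 and Sema3d were lowest on replicate 2, at -0.49 and -0.45 from their control means on the log2 scale, where the endothelial markers and pigment epithelium markers were lowest too (-0.27 and -0.16 on average over the genes), as were the photoreceptor precursor (-0.14) and blood (-0.15) lists. The lens and surface ectoderm list was highest there among the controls (0.15), and the mesenchyme markers stayed within 0.02 of their mean. Nrp1 was lowest on replicate 1 (-0.27), as were the ganglion cell markers (-0.30). Being the lowest control on replicate 2 was not particular to Nrp2 and Sema3d. Uncalled members with values near 0 were lowest there too, such as Sema3e (-0.11), Sema4a (-0.14) and Plxnb1 (-0.06), while others, such as Sema4c (0.21), were highest. Without control replicate 2, Nrp2 (1.48) and Sema3d (0.92) were still called. The part of these cells in the changes of the members was not tested.

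**Figure D5:**
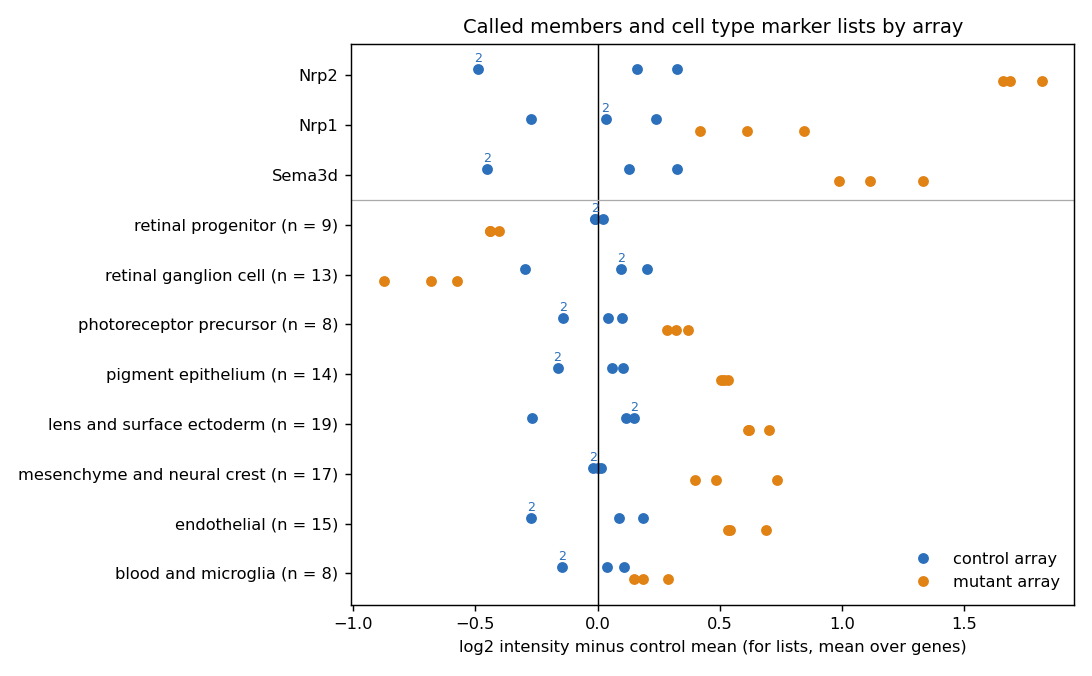
Log2 intensity minus the control mean (x axis) of Nrp2, Nrp1, Sema3d and the mean over genes of 8 marker lists (rows), in blue for control and orange for mutant arrays, with the digit 2 over control replicate 2. On the mutant arrays the single gene Nrp2 lies between 1.66 and 1.82 and the mean of the 15 endothelial genes between 0.53 and 0.69. Control replicate 2 is the lowest control for Nrp2, Sema3d and the endothelial list.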

How the data were processed

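GFP-positive cells of E12 control and Pax6 mutant eyes were pooled, and each of 3 pools per genotype was hybridised to 1 array. The authors made the deposited values by RMA, which corrects the background, normalises between arrays and summarises the probes of a probe set. RMA and Affymetrix Expression Console are listed in the submitters' processing notes, RACE and Bioconductor in the methods, without a version in these sources. The deposited intensities are on a linear scale, with array medians from 12.9 to 13.1. After log2, and without the 64 control probe sets, mutant was compared with control in limma 3.58.1 (R 4.3.3) over 45037 probe sets, with Benjamini-Hochberg adjustment over all of them. The thresholds are those of the methods, which name no test beyond a check with SAM, and the fit was tested on simulated data. RMA gives no detection call, so a level below the array median is named as such. In the platform annotation from GEO, 34945 probe sets had 1 gene symbol, 932 had several and 9160 had none, and only the first were used. Promoters came from RefSeq (GRCm38.p6).

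The members, the gene lists and the tests were chosen with earlier results of these data known. All members were named, with array values for called members, for those with another probe set called and for neuropilins; array values of the other members shown were picked after their values were seen. Of the partner lists, called genes and direct partners of called members were named, and of marker lists the 2 largest differences. Partner genes with an adjusted p under 0.10, and Mras, Rnd3, Arhgef11, Cdk5r1, Dpysl3, Dpysl5 and Rxrg, were added after their values were seen. Arrays have no depth, so the precision rests on there being 3 per group. The submitters call the arrays of a genotype biological repeats, without saying whether pools shared litters. The limma p-values rest on the spread between these pools, moderated toward that of all probe sets. Without moderation they rest on the pools' own spread. Alternatives covered left-out arrays, scaling, dim probe sets, variance models, array weights, a replicate block and the choice of probe set.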

Additional observations from a re-analysis of the deposited data

How the results depend on the processing

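Among the alternatives, 1 member was called higher without moderation of the variance (Nrp2), and 9 were higher and 1 (Plxnc1) lower by adjusted p alone, with no fold limit. Under that last rule 2 co-receptor genes (Nrcam, Flt4) were higher and 1 (Cntn2) was lower, and 3 effectors (Crmp1, Dpysl2, Dpysl4) were lower. All other settings gave 2 to 4 members higher and 0 lower, and 0 genes of either partner list, the 2 to 4 also being the range without 1 array at a time. With the replicate number as a block, 2 members were higher (Nrp2 and Sema3d), and Nrp1 (0.63, limma adjusted p 0.132) was not called. No pairing of the arrays by number was seen: deviations of same-numbered arrays had correlations from -0.011 to -0.00064, and 0 of 6 arrays correlated best with their own number. Correlations over all probe sets cannot exclude that same-numbered pools shared litters. Values near 0 changed sign in some settings. These were Sema3f with array medians subtracted (0.010), Sema4a after quantile normalisation (0.010), Plxnb3 without probe sets of the _x_at and _s_at types, whose probes may pick up other transcripts (-0.17), and, by the median of a gene's probe sets, Sema3e (-0.14), Sema6a (-0.067), Sema6c (0.076) and Plxnb3 (-0.075). Without 1 array at a time, the range was -0.048 to 0.11 for Sema3e, -0.017 to 0.012 for Sema3f, -0.089 to 0.041 for Sema4a, -0.034 to 0.14 for Sema6a, -0.14 to 0.0044 for Sema7a, -0.018 to 0.064 for Plxnb2 and -0.017 to 0.047 for Plxnb3. The causes were not tested. A fold change of linear means, added after the data were seen, called the same 3 genes. The scaling alternatives moved the median of all probe sets from -0.020 to -0.0094 and -0.0071. Dim probe sets near or below the array median, such as those of Sema4a, Sema5b and Sema6b, limit what can be said of their genes.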
